A study of Mus musculus with 36 samples.

Results

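The genes of 10 secreted muscle factors were followed through 36 RNA-seq libraries of C2C12 myotubes, the fused and differentiated form of a mouse myoblast line. They were chosen by name, as myokines and growth factors of muscle: Il6, Il15, Lif, Mstn, Fndc5, Metrnl, Bdnf, Fgf21, Gdf15 and Igf1. All are protein-coding, and each had 1 row in the count table of 55416 genes. Of the 10, 9 were detected in all 36 libraries and tested among 13995 genes, and Mstn was too low to be tested.

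All myotubes were transfected on day 3 of differentiation with an antisense locked nucleic acid (LNA), either a negative control (control) or one against the long non-coding RNA Tug1 (Tug1 KD). On day 4 they were left unstimulated (Rest, electrodes in the medium but not connected) or contracted by electrical pulse stimulation (EPS) for 3 h, at 13 V and 66 Hz with 2 ms pulses, alternating 5 s of stimulation and 5 s of pause. Stimulated wells were harvested at once (EPS 0h) or were left for 3 h to recover (EPS 3h), which gave 6 groups of 6 libraries. Each library was 1 well of 1 cell line, and the wells came from 2 independent experiments. The p-values measure the spread between wells pooled over both experiments, and not between animals or lines. The main fit had no term for the experiment, so that spread mixes differences between wells and between experiments. Wells of the same experiment were counted as independent. There was 1 Rest group per LNA, so at EPS 3h the stimulation and the additional 3 h in culture cannot be told apart.

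Myokines are proteins that muscle secretes and that act on muscle itself or on distant organs. Interleukin-6 (Il6) and leukemia inhibitory factor (Lif) signal through the shared receptor subunit gp130 and the transcription factor STAT3, and contraction is known to raise both in muscle. Fibroblast growth factor 21 (Fgf21) and growth differentiation factor 15 (Gdf15) are hormones of the cellular stress response and targets of the transcription factor ATF4. Insulin-like growth factor 1 (Igf1) promotes muscle growth, myostatin (Mstn) restrains it, and brain-derived neurotrophic factor (Bdnf) is made by both neurons and muscle.

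The libraries held 17005079 to 24181167 counts on genes (median 19439667.5). The targeted RNA, Tug1, was lower with the Tug1 LNA at Rest (27.3 ± 3.69 against 48.4 ± 6.79 CPM, mean ± SD, n = 6; log2 fold change -0.83 ± 0.171 SE, FDR = 0.000915), at EPS 0h (-0.57 ± 0.169, FDR = 0.0178) and at EPS 3h (-0.51 ± 0.168, FDR = 0.0414), although the control and KD ranges overlapped after EPS. All 12 myotube markers listed were detected, and their summed level was 13130 to 20279 CPM per library. Of the 11 tested, 0 were called after EPS in control or with Tug1 KD at Rest. With Tug1 KD against control, 1 was higher and 1 lower both at EPS 0h and at EPS 3h (18.2% called, against 14.3% and 11.5% of all genes). After EPS in KD, 1 was lower at EPS 0h and 2 at EPS 3h (9.09% and 18.2% called, against 45.6% and 52.1% of all genes). The 7 markers of undifferentiated or dividing myoblasts were also present, at a summed 130.8 to 221.2 CPM per library. In control, 2 of these 7 were higher and 1 lower at EPS 0h, and 1 higher and 2 lower at EPS 3h (42.9% called, against 38.9% and 52.0% of all genes). With Tug1 KD at Rest 0 were called (median log2 fold change -0.25), and 0 at EPS 0h. At EPS 3h 1 of the 7 was lower with Tug1 KD (14.3%, against 11.5% of all genes). Summed endothelial markers were low but higher after EPS in control myotubes (median 1.94 CPM at Rest, 4.62 at EPS 0h and 10.2 at EPS 3h), as were the adipocyte markers (0.161, 1.19 and 2.62 CPM). The endothelial and adipocyte levels moved together with the EPS results below, and the part of any of these markers in those results was not tested. Replicates 1 to 3 and replicates 4 to 6 lay on opposite sides of 0 on the first component of the deviations from the group means, which held 37.5% of that variance, except replicate 3 of EPS 3h control. On the second component, the libraries farthest from the rest were replicate 3 of EPS 3h control (score 0.54) and replicate 3 of EPS 3h Tug1 KD (0.38). Test results that involve them are therefore given with and without them where they differ.

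The 250 bases before the RefSeq start sites are shown for the members that were called higher or lower after EPS. They are from build GRCm38.p6, read 5′ to 3′ on the gene's strand, and Bdnf and Gdf15 have further starts. Capitals mark matches, on either strand, to any of 7 motifs: CRE (TGACGTCA), AP-1 (TGANTCA), the C/EBP-ATF response element (TGATGNAAN), the heat shock element (GAANNTTC), the myogenic E-box (CAGCTG), the STAT site (TTCNNNGAA) and the FOXO site (GTAAACA).
Bdnf, start 1, chr2:109674450-109674699, plus strand: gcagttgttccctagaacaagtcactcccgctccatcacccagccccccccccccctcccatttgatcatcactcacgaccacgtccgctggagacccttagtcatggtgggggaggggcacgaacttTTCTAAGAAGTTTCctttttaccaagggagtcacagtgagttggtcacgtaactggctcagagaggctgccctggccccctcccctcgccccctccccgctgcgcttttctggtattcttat
Bdnf, start 2, chr2:109676782-109677031, plus strand: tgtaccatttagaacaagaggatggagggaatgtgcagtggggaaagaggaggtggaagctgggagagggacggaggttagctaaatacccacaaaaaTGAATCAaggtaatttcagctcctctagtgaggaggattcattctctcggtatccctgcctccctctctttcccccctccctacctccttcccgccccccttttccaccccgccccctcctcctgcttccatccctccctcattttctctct
Gdf15, start 1, chr8:70632096-70632345, minus strand: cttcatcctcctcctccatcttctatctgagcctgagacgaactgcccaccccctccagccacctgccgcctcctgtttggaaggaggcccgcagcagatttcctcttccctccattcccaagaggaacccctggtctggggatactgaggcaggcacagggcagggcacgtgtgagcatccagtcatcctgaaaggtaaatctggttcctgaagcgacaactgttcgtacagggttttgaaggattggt
Fgf21, chr7:45615491-45615740, minus strand: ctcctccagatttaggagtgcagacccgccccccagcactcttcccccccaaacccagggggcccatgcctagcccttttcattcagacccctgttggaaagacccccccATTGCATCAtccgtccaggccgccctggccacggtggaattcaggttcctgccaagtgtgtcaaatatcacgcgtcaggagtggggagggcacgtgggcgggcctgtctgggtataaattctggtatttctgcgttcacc
Igf1, chr10:87860861-87861110, plus strand: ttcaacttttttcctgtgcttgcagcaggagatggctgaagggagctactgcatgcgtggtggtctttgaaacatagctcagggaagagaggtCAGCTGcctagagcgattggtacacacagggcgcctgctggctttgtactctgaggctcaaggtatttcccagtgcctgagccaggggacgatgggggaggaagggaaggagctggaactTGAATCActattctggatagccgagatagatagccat
Il6, chr5:30012864-30013113, plus strand: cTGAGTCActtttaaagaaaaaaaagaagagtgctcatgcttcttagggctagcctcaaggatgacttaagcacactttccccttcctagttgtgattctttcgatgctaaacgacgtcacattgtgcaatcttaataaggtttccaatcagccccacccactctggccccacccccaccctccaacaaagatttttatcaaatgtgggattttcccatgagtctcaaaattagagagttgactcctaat
Lif, chr11:4257318-4257567, plus strand: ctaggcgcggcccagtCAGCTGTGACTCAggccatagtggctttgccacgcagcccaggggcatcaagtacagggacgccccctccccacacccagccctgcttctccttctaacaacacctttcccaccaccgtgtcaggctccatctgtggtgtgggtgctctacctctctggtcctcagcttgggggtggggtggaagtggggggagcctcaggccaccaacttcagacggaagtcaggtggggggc
Metrnl, chr11:121702177-121702426, plus strand: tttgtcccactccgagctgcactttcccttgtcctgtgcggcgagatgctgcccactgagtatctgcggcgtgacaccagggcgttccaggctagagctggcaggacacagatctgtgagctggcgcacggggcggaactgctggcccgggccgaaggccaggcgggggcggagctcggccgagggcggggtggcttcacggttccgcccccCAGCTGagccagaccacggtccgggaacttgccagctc
The AP-1 forms bound by Fos and Jun lay in the windows of Il6 (TGAGTCA, at -249 from the start) and Lif (TGACTCA, -228). The looser pattern searched, TGANTCA, also matched TGAATCA in the windows of Igf1 (-37), Mstn (-170) and the second Bdnf start (-152). That looser pattern lay in 7.81% of 32851 mouse windows running from 250 bases before to 50 after a start. The C/EBP-ATF element, bound by ATF4 dimers, lay in the Fgf21 window at -140, in that of the seventh Bdnf start at 8, and in 3.95% of all windows. In the first Bdnf window a STAT site (-122) and a heat shock element (-116) overlapped, motifs found in 8.3% and 7.86% of all windows. The E-box lay in the windows of Lif (-234), Metrnl (-38), Igf1 (-157), Fgf21 (21) and the fifth Bdnf start (-171) and in 16.3% of all windows. Neither window of Gdf15, the window of Fndc5 nor those of the other 3 Bdnf starts held any of the 7 motifs. A match describes the letters and does not show that a factor was bound.

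Levels per gene length ordered the members at Rest in control myotubes as follows, in mean CPM per kilobase of exon. Gdf15 (62.9) and Fgf21 (48.9) were highest, followed by Lif (9.33), Metrnl (8.43) and Fndc5 (7.58), then Bdnf (2.75) and Il6 (2.32), Igf1 (0.773), Il15 (0.378) and Mstn (0.0396). The library ranges of Gdf15 and Fgf21 overlapped, as did those of Lif, Metrnl and Fndc5 and those of Bdnf and Il6. The remaining neighbours in this order did not overlap.

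**Figure D1:**
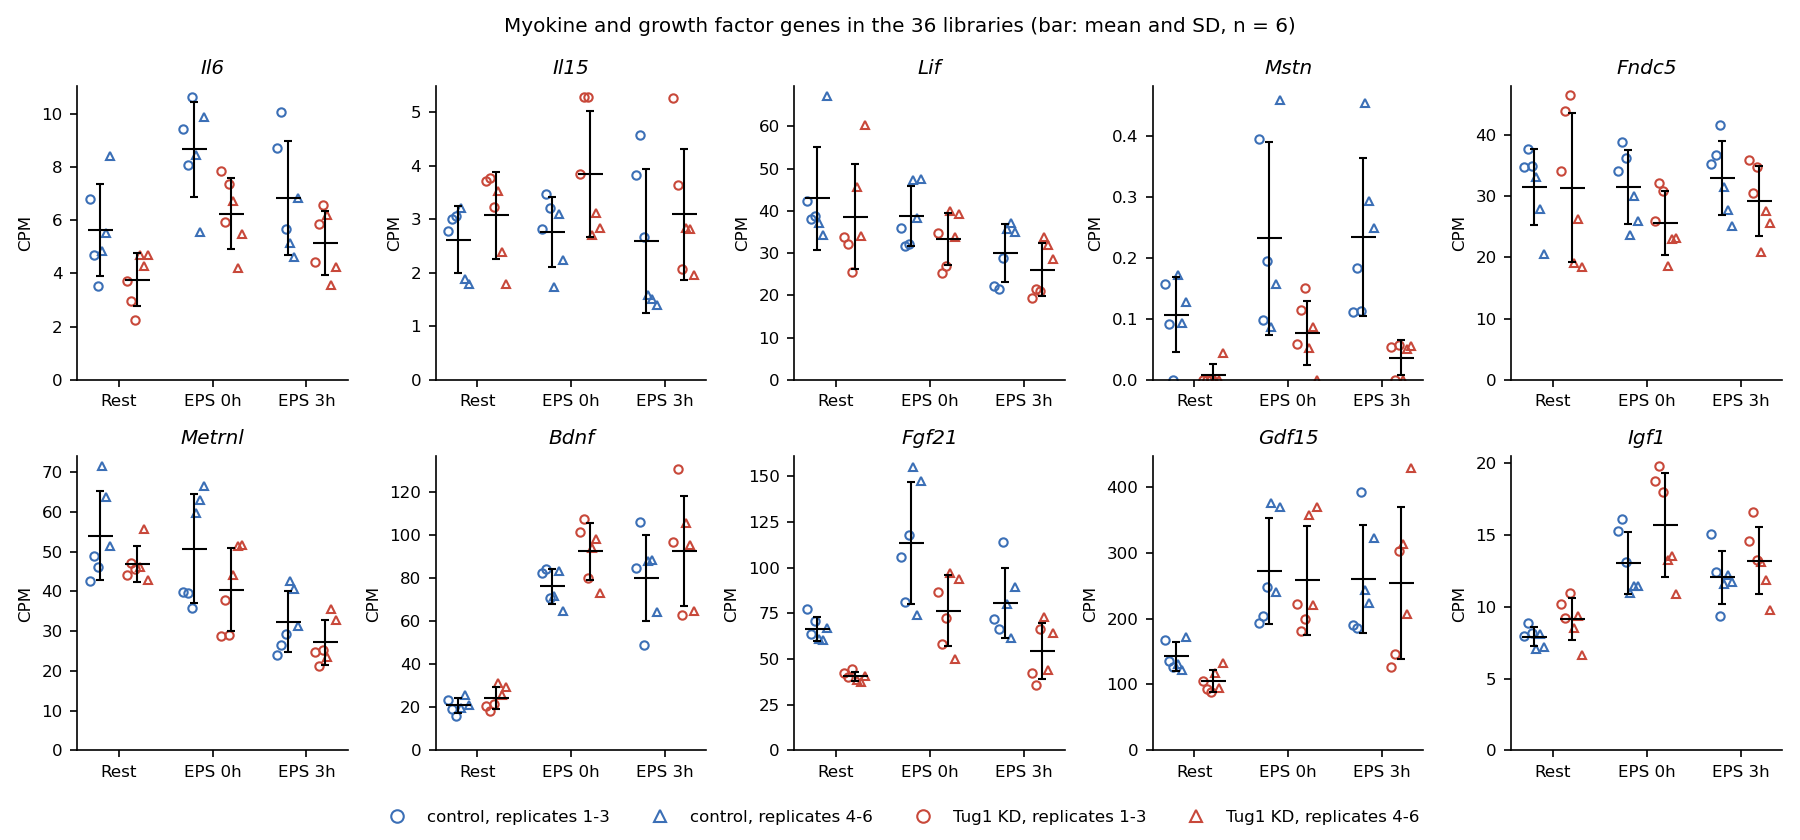
Level of each of the 10 genes in CPM (vertical axis, from 0) in every library, by condition; blue is control and red Tug1 KD, circles are replicates 1 to 3 and triangles replicates 4 to 6, and black bars give the mean and SD of 6 libraries. Bdnf separates Rest from EPS in both LNAs, Fgf21 separates control from Tug1 KD at Rest, and Mstn stays under 0.5 CPM.

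The first comparison asked which of these factors differed between EPS and Rest in control myotubes. At EPS 0h, 5 of the 9 tested members were higher and 0 lower, while 38.9% of all tested genes changed (20.5% higher and 18.4% lower). Bdnf rose most, and Gdf15, Fgf21, Igf1 and Il6 rose by 1.54- to 1.91-fold. At EPS 3h, 3 members were higher (Bdnf, Gdf15 and Igf1) and 2 lower (Metrnl and Lif), against 52.0% of all genes (26.1% higher and 25.9% lower). With 9 members, nothing particular to them is read from these counts. In Tug1 KD myotubes Bdnf, Gdf15, Fgf21, Igf1 and Il6 were again higher at EPS 0h (background 45.6%, with 24.4% higher and 21.2% lower), and at EPS 3h 4 were higher and 2 lower (background 52.1%, with 26.2% higher and 25.9% lower). Because bulk RNA was measured, a change in the number of expressing cells and a change in RNA per cell cannot be told apart.

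Bdnf (ENSMUSG00000048482, chromosome 2, 109505045 to 109557475, GRCm39) rose after EPS. It ranged over 6 control libraries from 16.1 to 25.7 CPM (median 20.5) at Rest, from 64.7 to 84.4 (median 77.1) at EPS 0h and from 49.2 to 106.1 (median 86.4) at EPS 3h. Every stimulated control library was above every Rest library. The log2 fold change was 1.87 ± 0.17 (SE) at EPS 0h (3.65-fold, FDR = 9.81e-11) and 1.94 ± 0.17 at EPS 3h (3.84-fold, FDR = 9.32e-12). In Tug1 KD myotubes Bdnf rose by 1.92 ± 0.169 at both times. In replicates 1 to 3 alone the increase in control was 2.02 at EPS 0h, and in replicates 4 to 6 alone it was 1.72. The lowest EPS 3h values, 49.2 CPM in control and 62.9 in KD, came from the replicate 3 libraries, without which the EPS 3h changes were 2.04 and 1.98.

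Gdf15, which signals through the hindbrain receptor GFRAL (ENSMUSG00000038508, chromosome 8, 71082038 to 71091537), had 122.3 to 172.0 CPM (median 133.1) at Rest in control, 193.8 to 375.7 (median 244.2) at EPS 0h, and 185.3 to 392.5 (median 233.4) at EPS 3h. Here too no stimulated control library overlapped the Rest libraries. The log2 fold change was 0.93 ± 0.235 at EPS 0h (FDR = 0.00179) and 0.86 ± 0.235 at EPS 3h (FDR = 0.00232). In Tug1 KD it was 1.30 ± 0.238 (FDR = 3.38e-05) and 1.27 ± 0.237 (FDR = 2.68e-05). Within replicates 1 to 3 the EPS 0h change in control was 0.59 and did not pass (FDR = 0.0972), and within replicates 4 to 6 it was 1.21 (FDR = 0.000894). Replicate 3 of EPS 3h control held 392.5 CPM, against 189.4 and 185.3 in replicates 1 and 2, and without both replicate 3 libraries the control change at EPS 3h was 0.70 (FDR = 0.0144).

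Fgf21 (ENSMUSG00000030827, chromosome 7, 45263301 to 45266963), a metabolic hormone that needs the co-receptor beta-Klotho, rose at EPS 0h. In control it had 60.3 to 77.2 CPM (median 65.2) at Rest, 73.9 to 154.9 (median 111.8) at EPS 0h, and 61.7 to 114.1 (median 76.1) at EPS 3h. The EPS 0h libraries overlapped Rest with 1 library. The change at EPS 0h was 0.77 ± 0.179 on the log2 scale (FDR = 0.000828) in control and 0.91 ± 0.181 (FDR = 9.56e-05) in KD. At EPS 3h it was 0.28 in control (95% interval -0.09 to 0.64, FDR = 0.197) and 0.42 ± 0.18 in KD (FDR = 0.0498). The KD value passed in 8 of 19 settings. It was lost with limma-voom (FDR = 0.0882), without the EPS 3h replicate 3 libraries (0.134), and on leaving out replicate 1 (0.0511), 3 (0.116), 4 (0.204) or 6 (0.134) of every group. In control at EPS 0h, replicates 1 to 3 alone gave 0.52 (FDR = 0.0603) and replicates 4 to 6 alone 1.00 (FDR = 0.00469).

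Igf1 (ENSMUSG00000020053, chromosome 10, 87693642 to 87772904) had 7.08 to 8.87 CPM (median 8.05) at Rest in control, 11.0 to 16.1 (median 12.3) at EPS 0h, and 9.38 to 15.1 (median 11.9) at EPS 3h. No stimulated control library reached down into the Rest range. The log2 fold change was 0.72 ± 0.143 at EPS 0h (FDR = 0.000119) and 0.61 ± 0.143 at EPS 3h (FDR = 0.000518). The corresponding changes in Tug1 KD were 0.78 ± 0.142 (FDR = 3.1e-05) and 0.53 ± 0.142 (FDR = 0.00206). In control, both replicate sets alone passed at both times, with changes of 0.83 and 0.59 for EPS 0h, and of 0.58 and 0.66 for EPS 3h.

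The cytokine Il6 (ENSMUSG00000025746, chromosome 5, 30218112 to 30224979) had 3.52 to 8.41 CPM (median 5.18) at Rest in control, 5.56 to 10.6 (median 8.94) at EPS 0h, and 4.61 to 10.1 (median 6.25) at EPS 3h. The ranges overlapped at both times. Il6 rose at EPS 0h by 0.62 ± 0.21 in control (FDR = 0.0182) and by 0.72 ± 0.217 in KD (FDR = 0.00689). At EPS 3h it differed from Rest by 0.27 in control (95% interval -0.16 to 0.71) and 0.44 in KD (-0.01 to 0.89), and neither passed. The replicate sets differed there: replicates 1 to 3 alone gave 0.72 in control (FDR = 0.0239) and 0.93 in KD (FDR = 0.00721), while replicates 4 to 6 alone gave -0.18 (FDR = 0.566) and 0.03 (FDR = 0.945). The EPS 0h increase was 0.90 (FDR = 0.00828) in control and 1.25 in KD (FDR = 0.000789) in replicates 1 to 3, and 0.35 (FDR = 0.308) and 0.25 (FDR = 0.513) in replicates 4 to 6. The control call was also lost without replicate 3 (FDR = 0.109) or 4 (FDR = 0.0606).

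Lif (ENSMUSG00000034394, chromosome 11, 4207557 to 4222514), from the same cytokine family, was lower after recovery. In control it had 34.3 to 67.2 CPM (median 38.5) at Rest, 31.7 to 47.6 (median 37.1) at EPS 0h, and 21.5 to 37.1 (median 31.9) at EPS 3h, with overlap between the groups. At EPS 0h its change was -0.15 in control (FDR = 0.566) and -0.21 in KD (FDR = 0.365), and neither passed. Lif fell between Rest and EPS 3h in control (-0.51 ± 0.188, FDR = 0.0215) and in KD (-0.57 ± 0.189, FDR = 0.0119). The control call was lost without replicate 1 (FDR = 0.0859), 2 (FDR = 0.0603) or 6 (FDR = 0.0982) and in replicates 4 to 6 alone (-0.36, FDR = 0.151).

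Metrnl (ENSMUSG00000039208, chromosome 11, 121592370 to 121611770) encodes meteorin-like, a secreted factor reported to act on fat and immune cells. Its control levels were 42.5 to 71.4 CPM (median 50.1) at Rest, 35.8 to 66.4 (median 49.8) at EPS 0h, and 24.0 to 42.6 (median 30.3) at EPS 3h. At EPS 3h 5 of 6 control libraries and all 6 KD libraries were below every Rest library of their LNA. Relative to Rest, Metrnl was lower at EPS 3h by -0.74 ± 0.174 in control (FDR = 0.000546) and -0.79 ± 0.175 in KD (FDR = 0.000282). Both sets passed alone in control, with -0.77 and -0.71. At EPS 0h the change was -0.09 in control (95% interval -0.44 to 0.26) and -0.21 in KD (-0.57 to 0.14), and neither passed. In KD at EPS 0h replicates 1 to 3 alone gave -0.51 (FDR = 0.00153) and replicates 4 to 6 alone 0.03 (FDR = 0.926).

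Fndc5 (ENSMUSG00000001334, chromosome 4, 129030397 to 129041865), the precursor of irisin, and Il15 (ENSMUSG00000031712, chromosome 8, 83054226 to 83129874), a cytokine of lymphocytes and muscle, passed in none of the 11 comparisons with edgeR's quasi-likelihood test. Fndc5 had 20.5 to 37.6 CPM (median 33.9) at Rest, 23.6 to 38.9 (median 32.0) at EPS 0h and 25.1 to 41.5 (median 33.4) at EPS 3h in control. Its change in control was 0.00 at EPS 0h (95% interval -0.39 to 0.39) and 0.07 at EPS 3h (-0.33 to 0.46). Il15 was low, with 1.79 to 3.22 CPM (median 2.89) at Rest, 1.73 to 3.48 (median 2.96) at EPS 0h and 1.39 to 4.58 (median 2.13) at EPS 3h. Its intervals were wider, -0.49 to 0.64 at EPS 0h and -0.59 to 0.54 at EPS 3h. Fndc5 in KD at EPS 0h was lower in replicates 1 to 3 alone (-0.47, FDR = 0.00338) and differed by 0.02 in replicates 4 to 6 (FDR = 0.943).

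**Figure D2:**
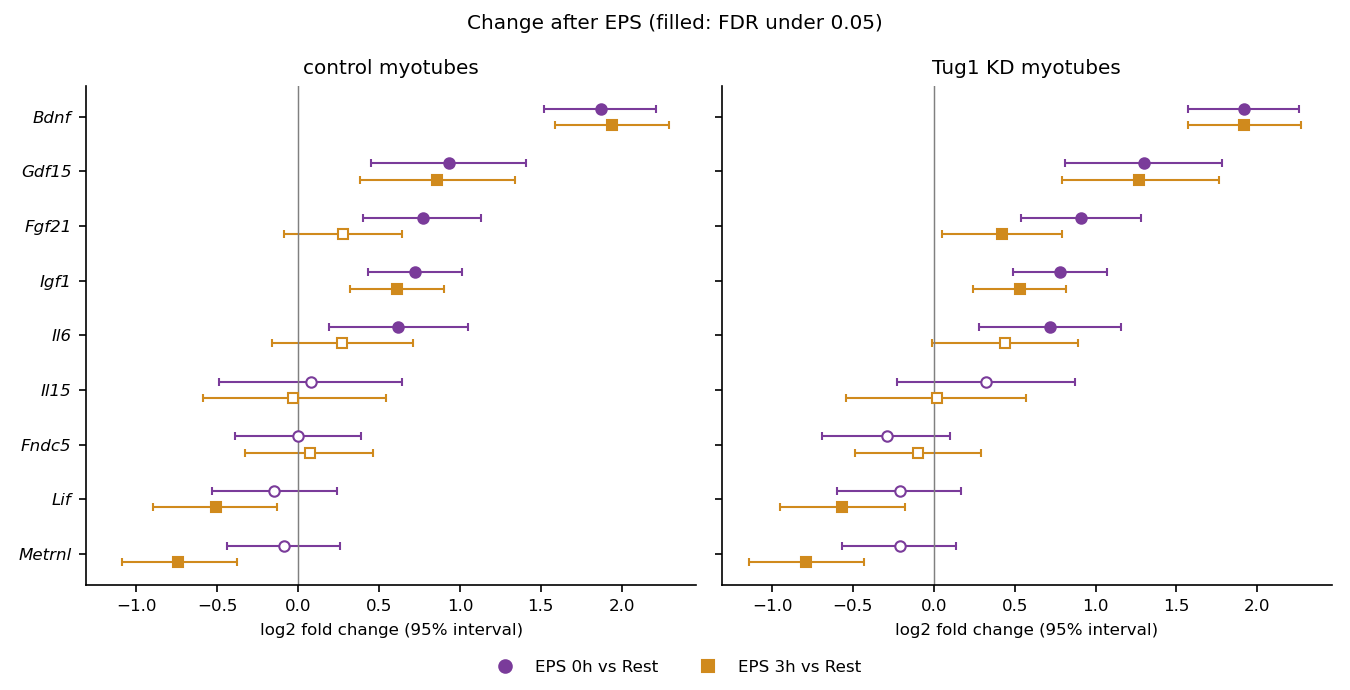
Log2 fold change of the 9 tested genes after EPS (horizontal axis) with its 95% interval, in control myotubes (left) and Tug1 KD myotubes (right); circles compare EPS 0h and squares EPS 3h with Rest, and filled symbols have an FDR under 0.05. Bdnf lies near 1.9 in all 4 comparisons, and Metrnl and Lif lie below 0 at EPS 3h.

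Direct comparison of the recovery time with the end of EPS found 1 member called in each LNA. Metrnl was lower at EPS 3h than at EPS 0h in control (-0.65 ± 0.174, FDR = 0.00759; 16.6% of all genes changed, 9.67% higher and 6.88% lower) and in KD (-0.57 ± 0.175, FDR = 0.0199; 15.7% of all genes changed, 8.59% higher and 7.13% lower). Fgf21 was lower by nearly the same amount in both, -0.49 ± 0.178 in control (FDR = 0.054) and -0.49 ± 0.179 in KD (FDR = 0.0574), and did not pass. With the replicate number as a block, Fgf21 (FDR = 0.0037) and Lif (FDR = 0.0285) also passed in KD. Same-numbered libraries deviated together there, as did other-numbered libraries of the same replicate set (mean r = 0.30). The Metrnl call was lost without replicate 6 in control (FDR = 0.0803) and without replicate 2 (FDR = 0.0741), 4 (FDR = 0.0919) or 6 (FDR = 0.0878) in KD.

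The next comparison asked what Tug1 knockdown changed. Fgf21 was lower in Tug1 KD at Rest, EPS 0h and EPS 3h, the 1 member called in each condition, while 10.0%, 14.3% and 11.5% of all genes changed (4.47%, 6.07% and 5.11% lower; 5.54%, 8.25% and 6.38% higher). At Rest it had 60.3 to 77.2 CPM (median 65.2) in control and 37.7 to 44.6 (median 40.5) in KD, and every KD library was below every control library. The log2 fold change was -0.71 ± 0.18 (0.61-fold, FDR = 0.0065), with -0.74 in replicates 1 to 3 (FDR = 0.0501) and -0.68 in replicates 4 to 6 (FDR = 0.0688). The KD levels were 49.99 to 96.8 CPM (median 79.8) at EPS 0h and 36.01 to 72.8 (median 54.1) at EPS 3h, which overlapped the control levels given above, though all 6 KD libraries were below the control mean each time. The changes were -0.57 ± 0.179 at EPS 0h (FDR = 0.0265) and -0.57 ± 0.18 at EPS 3h (FDR = 0.0322). In replicates 1 to 3 alone they were -0.46 (FDR = 0.25) and -0.80 (FDR = 0.0345), and in replicates 4 to 6 alone -0.65 (FDR = 0.0796) and -0.36 (FDR = 0.41). These 2 calls were lost when the compared groups alone were fitted (FDR = 0.0918 and 0.09). The EPS 0h call was also lost without replicate 3 (FDR = 0.0724), 4 (0.0781) or 6 (0.0655), and the EPS 3h call without replicate 1 (0.0991), 2 (0.087), 3 (0.109) or 6 (0.0526) and without the 2 EPS 3h replicate 3 libraries (-0.51, FDR = 0.0862). Some markers of other cell types differed with the knockdown too. The summed level of 6 macrophage or leukocyte markers was 3.79 to 6.93 CPM (median 4.66) at Rest in control and 1.99 to 2.96 (median 2.76) in KD, with Tyrobp under 3 counts in all 36 libraries. Of these, Cd68 alone was tested, and it was lower in KD at Rest (-1.02, FDR = 0.000116) and at EPS 3h (-0.72, FDR = 0.00901). The fibroblast marker Pdgfra was lower in each condition (-0.57, -0.80 and -0.69), while the summed fibroblast markers, 152.3 to 243.3 CPM in control and 147.1 to 199.7 in KD at Rest, overlapped. In each condition 1 of 3 tested fibroblast markers was called, and 0 of 3 endothelial and 0 of 1 neuronal markers. The part of these markers in the knockdown results was not tested.

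Il6 was lower in KD by -0.58 at Rest (95% interval -1.02 to -0.13), -0.48 at EPS 0h (-0.90 to -0.05) and -0.41 at EPS 3h (-0.85 to 0.03), with all 6 KD libraries below the control mean in each condition, but did not pass over all genes (FDR = 0.0915, 0.132 and 0.252). Its KD levels were 2.26 to 4.70 CPM (median 4.00) at Rest, 4.19 to 7.85 (median 6.32) at EPS 0h and 3.58 to 6.55 (median 5.14) at EPS 3h. Gdf15 differed by -0.44 at Rest (-0.92 to 0.04, FDR = 0.29) with 88.3 to 132.1 CPM (median 99.6) in KD, and by -0.08 at EPS 0h and -0.03 at EPS 3h. Bdnf (0.21 to 0.28), Igf1 (0.13 to 0.27) and Il15 (0.23 to 0.47) had higher means in KD in all 3 conditions, and Lif (-0.22 to -0.15), Metrnl (-0.33 to -0.20) and Fndc5 (-0.30 to -0.01) lower means, and none passed. With the replicate number as a block, Metrnl (-0.32, FDR = 0.0288) and Fndc5 (-0.30, FDR = 0.0494) passed at EPS 0h.

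**Figure D3:**
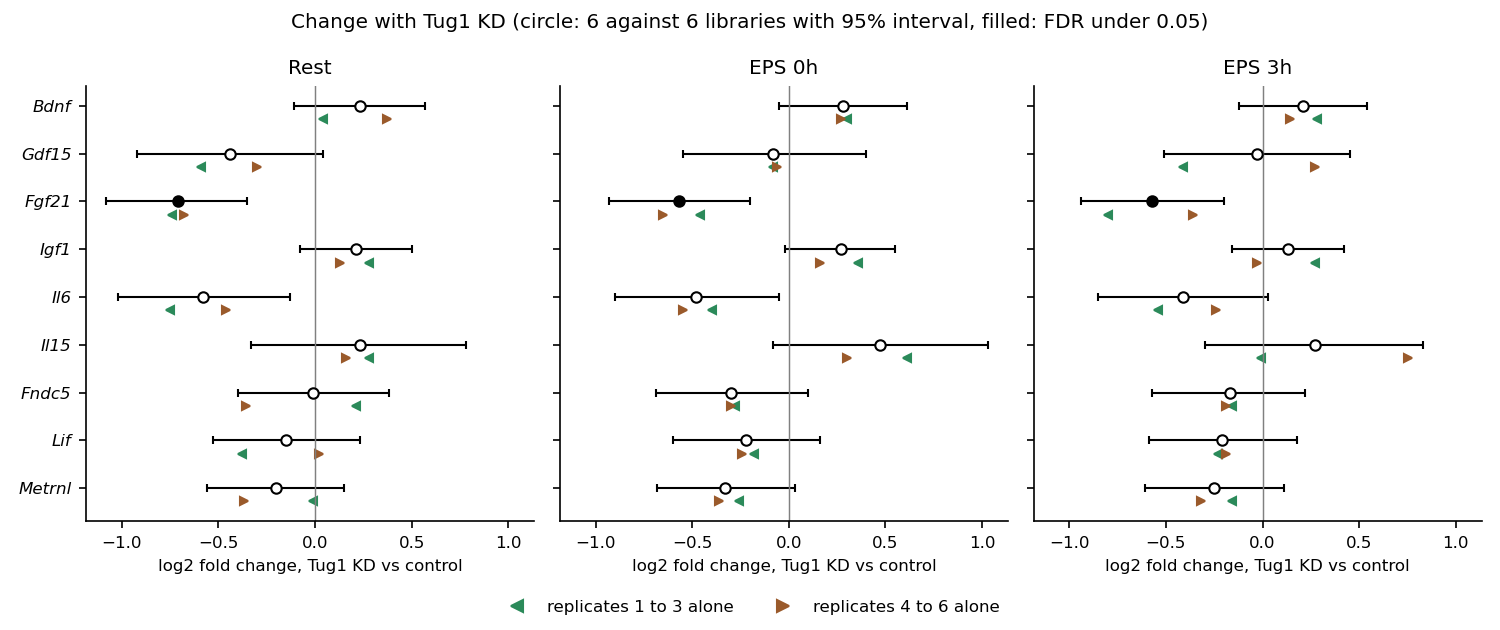
Log2 fold change of Tug1 KD against control (horizontal axis) for the 9 tested genes at Rest, EPS 0h and EPS 3h; black circles with bars give the value and 95% interval over 6 against 6 libraries, filled where the FDR is under 0.05, and triangles give the value in each replicate set alone. Fgf21 is filled in all 3 conditions, at -0.71, -0.57 and -0.57.

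Mstn (ENSMUSG00000026100, chromosome 1, 53100799 to 53107240) reached 3 counts in 12 of 36 libraries and 1 CPM in 0. At Rest the 6 control libraries held 14 counts in all (0 to 4 per library) and the 6 KD libraries 1 count (0 to 1). At EPS 0h the sums were 27 (2 to 9) and 9 (0 to 3), and at EPS 3h 28 (2 to 10) and 4 (0 to 1). At EPS 3h no KD library overlapped the control libraries. When genes were not filtered on low counts, Mstn was lower in KD at EPS 3h (FDR = 0.034) and missed the threshold at Rest (FDR = 0.0614) and EPS 0h (FDR = 0.224). Because 3 counts, the floor used here, are 0.127 to 0.183 CPM, no fold is given.

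Whether knockdown altered the response to EPS was tested as the interaction of LNA and EPS. With edgeR, 0 of 9 members passed at EPS 0h, where 0.0% of all genes did, and 0 of 9 at EPS 3h, where 0.00715% did, and 0 members had an unadjusted p under 0.05 (lowest 0.281 and 0.224). Over all genes, 0 and 1 passed, 324 and 430 had an unadjusted p under 0.05, and DESeq2 and limma-voom also called 0 and 1. Evenly spread p-values would put a share of 0.05 of the 13995 genes there, more than was seen. The interaction test may therefore be conservative in these data, and the reason was not tested. The intervals of the difference were wide: for Bdnf -0.43 to 0.52 at EPS 0h and -0.49 to 0.46 at EPS 3h, for Fgf21 -0.37 to 0.66 at both times, and for Gdf15 -0.31 to 1.04 and -0.27 to 1.08 (log2).

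The receptors through which these factors act differed in their response. Beta-Klotho (Klb), the FGF21 co-receptor, rose from 0.389 ± 0.161 CPM at Rest in control (mean ± SD, n = 6) to 2.96 ± 0.442 at EPS 0h (log2 fold change 2.91 ± 0.307 SE, FDR = 2.46e-09) and 4.67 ± 1.39 at EPS 3h (3.56 ± 0.304, FDR = 5.03e-12). Fgfr1, the FGF receptor that pairs with it, fell from 325.0 to 251.1 and 183.5 CPM (-0.37, FDR = 0.0104; -0.82, FDR = 2.8e-07), and Fgfr2 rose from 5.92 to 23.9 and 39.2 CPM (2.01 and 2.72). The LIF receptor Lifr rose at both times by 0.72 on the log2 scale (FDR = 9.98e-05 and 4.33e-05), from 62.8 to 103.1 and 103.7 CPM. Il6ra rose at EPS 0h by 0.39 (FDR = 0.0119) and differed by -0.09 at EPS 3h (FDR = 0.565), and Il6st, which encodes gp130, did not pass at either time (0.19 and 0.07).

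The IGF1 receptor Igf1r rose after EPS in control (40.5, 57.0 and 78.3 CPM at Rest, EPS 0h and EPS 3h) and was higher in Tug1 KD in each condition, by 0.67 ± 0.139 at Rest (FDR = 0.00103), 0.71 at EPS 0h (FDR = 0.000385) and 0.80 at EPS 3h (FDR = 0.000106). Acvr2a, a myostatin and activin receptor, rose after EPS by 0.59 (FDR = 0.00918) and 0.57 (FDR = 0.00874), and Acvr2b, at 1.58 CPM at Rest, did not pass (0.09 and 0.13). Il15ra was at 0.499 CPM in control at Rest and not tested, and the BDNF receptor Ntrk2 and the receptor kinase Kit, reported to bind meteorin-like, had a mean of 0 CPM in both Rest groups.

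**Figure D4:**
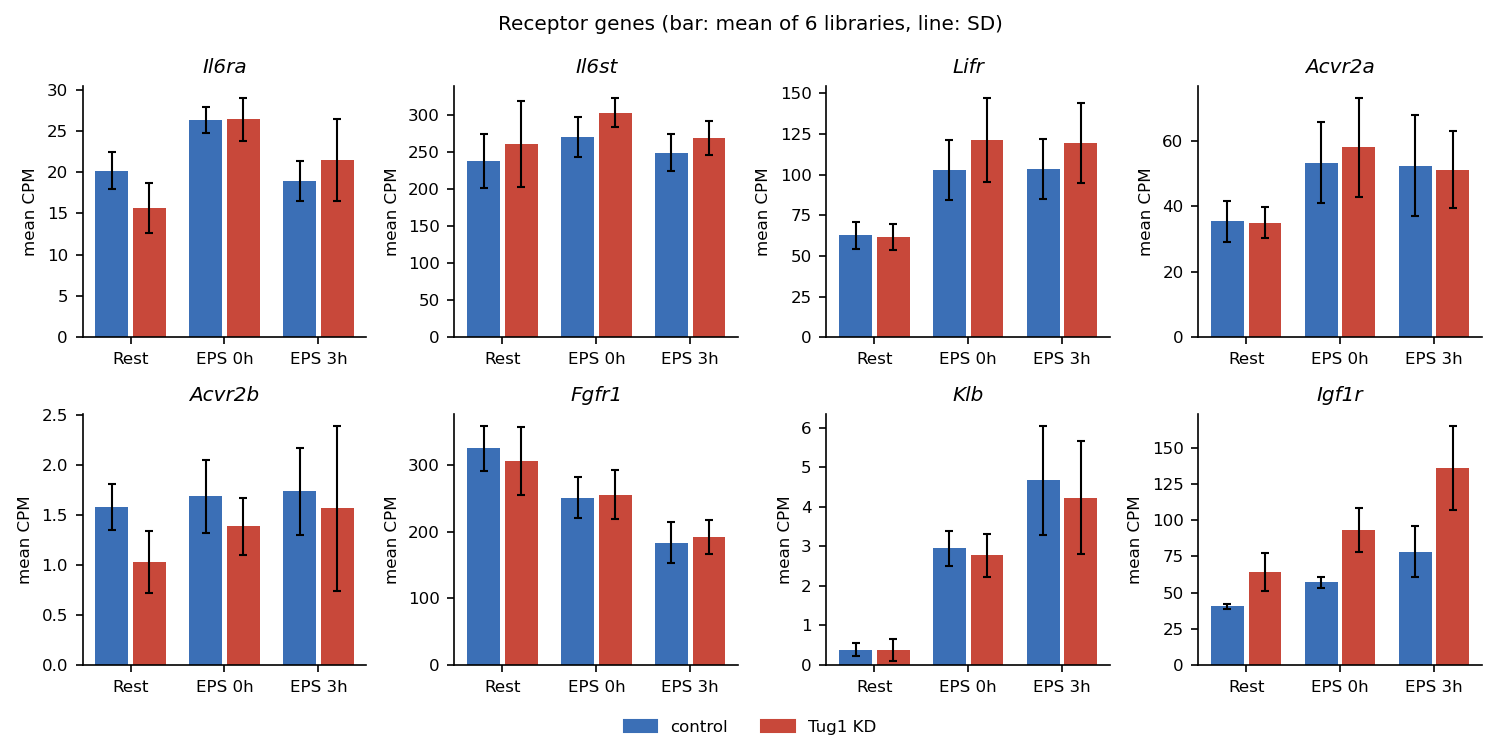
Mean CPM of 8 receptor genes (bars from 0, n = 6 libraries each, lines give the SD) in control (blue) and Tug1 KD (red) by condition. Klb rises from under 0.5 CPM at Rest, Fgfr1 falls after EPS, and Igf1r is higher in Tug1 KD in each condition.

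Other genes of these pathways were counted by list for control myotubes after EPS, first for EPS 0h and then for EPS 3h, with the median log2 fold change over all tested genes at -0.03 and -0.02. All lists together held 111 tested genes, of which 52.3% and 56.8% were called, against 38.9% and 52.0% of all genes. Because the lists were chosen with earlier results of these data known, no enrichment is read from their shares. Of 13 tested genes of IL-6 family cytokines, receptors and signalling, 6 and 5 were higher and 3 and 3 lower (median 0.17 and 0.00), or 69.2% and 61.5% called against the same 38.9% and 52.0%. Socs3, the feedback inhibitor induced by STAT3, was lower, from 34.1 ± 10.6 CPM at Rest to 14.9 ± 5.37 at EPS 0h (-1.20 ± 0.265, FDR = 0.000465) and 14.0 ± 5.08 at EPS 3h (-1.28, FDR = 0.000118), and the cytokine Il11 was higher at EPS 3h (0.79, FDR = 0.000216). Il2rb, the 1 tested IL-15 receptor subunit, was lower at both times (-0.76, FDR = 0.00138; -0.44, FDR = 0.0445).

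Among 18 tested genes of the myostatin and activin pathway, 7 and 7 were higher and 6 and 8 lower (median 0.02 and 0.08), or 72.2% and 83.3% called, with 38.9% and 52.0% over all genes. Inhba, the activin A subunit gene, rose from 54.5 to 131.2 and 169.0 CPM (1.27 ± 0.171, FDR = 3.26e-07; 1.63 ± 0.173, FDR = 7.04e-10), and the inhibitory Smad7 from 45.4 to 101.4 and 130.6 CPM (1.16 and 1.53). In 5 tested neurotrophin genes besides Bdnf, 1 and 2 were higher and 1 and 0 lower (median 0.32 and 0.49), 40.0% called each time. Ntf5, a neurotrophin of the family of Bdnf, rose at both times (0.46 and 0.49), and Furin, a protease that processes pro-BDNF, was lower at EPS 0h (-0.53, FDR = 0.0136).

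Of 14 tested IGF ligands, receptors and binding proteins, 4 and 4 were higher and 0 and 2 lower (median -0.11 and -0.14), so that 28.6% and 42.9% were called, below the 38.9% and 52.0% of all genes. Pappa, a protease that frees IGF from its binding proteins, rose from 1.89 to 5.35 and 8.77 CPM (FDR = 1.63e-06 and 2.07e-10), and the insulin receptor substrate Irs2 from 29.4 to 70.3 and 88.8 CPM (1.26 and 1.60). For the FGF list, 4 and 4 of 13 were higher and 5 and 5 lower (median -0.09 and -0.17), 69.2% called each time. Of 12 genes of the ATF4 and integrated stress response, 6 and 4 were higher and 0 and 2 lower (median 0.56 and 0.27). In all 6 of 12 were called at each time, against 38.9% and 52.0% of all genes (20.5% and 26.1% higher). Chac1, which degrades glutathione, had 71.5 ± 18.6 CPM at Rest and 216.6 ± 73.3 at EPS 0h (1.60 ± 0.24, FDR = 2e-06), Sesn2, a sestrin, rose by 1.06 (FDR = 1.95e-05), and Ppp1r15a, which restores translation after stress, rose by 1.32 at EPS 3h (FDR = 2.35e-12), as did Cebpg by 0.96 (FDR = 5.85e-08).

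Of 5 tested relatives and partners of Fndc5 and Metrnl, 0 and 1 were higher and 1 and 2 lower (median -0.26 and -0.42), and Fndc4 (-0.50 and -0.61) and Metrn (-0.42 at EPS 3h) were lower. Among 30 other secreted muscle factors, 8 and 9 were higher and 5 and 4 lower (median 0.08 at both times), 43.3% called each time against 38.9% and 52.0% of all genes. The neuregulin gene Nrg1 rose at EPS 0h from 15.5 to 37.3 CPM (1.26, FDR = 1.05e-07), the cytokine gene Il34 was lower (24.9 to 9.24 CPM, -1.43, FDR = 1.27e-06), and the epidermal growth factor family member Ereg rose at EPS 3h (16.4 to 58.7 CPM, 1.84, FDR = 4.68e-09). Bmp7, a bone morphogenetic protein, had 0 counts in all 6 Rest control libraries and 4.24 ± 1.21 CPM at EPS 3h, at least 27-fold higher when each Rest library is set to the floor of 3 counts.

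With Tug1 KD at Rest 10 of the 111 tested genes of these lists passed (9.01%), near the 10.0% of all genes, and the median over all genes was -0.03. None of the 13 IL-6 family genes (median -0.10), 1 IL-15 receptor subunit (0.18), 12 stress response genes (-0.14) or 5 Fndc5 and Metrnl relatives (-0.06) passed in edgeR's test. In the myostatin and activin list 2 of 18 were higher and 1 lower (median -0.06): Fstl3, a secreted activin and myostatin inhibitor, rose from 14.5 ± 0.956 to 23.8 ± 3.52 CPM (0.71 ± 0.105, FDR = 8.67e-06) and the receptor Acvr1b fell (-0.40, FDR = 0.0174). Of the FGF list 2 of 13 were higher and 0 lower (median 0.14), the intracellular Fgf13 (0.665 to 2.92 CPM, 2.12 ± 0.289, FDR = 2.45e-06) and the decoy receptor Fgfrl1 (0.46, FDR = 0.0241). Of the neurotrophin list 1 of 5 was lower and 0 higher (median -0.25), Ntf5 (-0.71, FDR = 0.012), and of the IGF list 1 of 14 was higher, Igf1r (median -0.01). Of the 30 other secreted factors 2 were higher and 1 lower (median -0.04), among them Tgfb2 (26.6 to 53.0 CPM, 0.99, FDR = 0.000466) and Hbegf (-0.54, FDR = 8.04e-05).

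Genes with the profile most like each member over the 36 libraries were named by Pearson's r of log2 CPM, a description over libraries that share groups and replicate sets. They were Tent5a and Gm48565 for Bdnf (0.98 each), Fkbp4, an HSP90 co-chaperone gene (0.96), and Stk40 (0.91) for Gdf15, and Smg8 (0.87) and Rhou (0.86) for Fgf21. For Igf1 they were Mycbp and Itgb8 (0.94 each), for Il6 Nfil3 and Armt1 (0.81 each) and for Il15 Uxt (0.80) and Tspan7 (0.78). For Lif they were Dab2ip (0.88) and Artn (0.87), for Metrnl Atg101 (0.95) and En1 (0.94), and for Fndc5 Pygm, the muscle glycogen phosphorylase (0.92), and Dhrs7c (0.91). Among the members themselves, Fgf21 and Gdf15 varied together after the group means were removed, with r = 0.85 in the 18 libraries of replicates 1 to 3 and 0.84 in the 18 of replicates 4 to 6, and Lif and Fndc5 varied in opposite directions (-0.48 and -0.78). Fndc5 and Metrnl also varied together within each replicate set (0.61 and 0.88), but over all 36 libraries with the group means removed r was -0.35. In every group the mean of Fndc5 was higher in replicates 1 to 3 and that of Metrnl in replicates 4 to 6. Gdf15 varied opposite to Il15 (-0.85 and -0.53), and to Bdnf (-0.72 and -0.61) and Igf1 (-0.73 and -0.56), which like Gdf15 were higher after EPS. The correlations in replicates 1 to 3 include both EPS 3h replicate 3 libraries and were not computed without them. In EPS 3h control, replicates 1, 2 and 3 held 189.4, 185.3 and 392.5 CPM of Gdf15 and 84.7, 106.1 and 49.2 CPM of Bdnf.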

How the data were processed

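RNA was measured by poly-A selected, stranded, paired-end sequencing of 36 libraries, 6 in each of 6 groups taken from the sample titles. The authors trimmed reads with fastp 0.14.1, checked them with FastQC 0.11.7, aligned them to GRCm39 with STAR 2.5 in 2-pass mode and deposited raw counts per gene; the counter and its strand setting are not given in the sources used here. Rows without a gene name (1492) held 0.0327% of counts. CPM are counts scaled to the TMM-adjusted library size. Genes with at least 1 CPM in at least 12 libraries (13995) were tested with edgeR 4.0.16 (quasi-likelihood F test, R 4.3.3) on all 6 groups, called at an FDR (Benjamini-Hochberg) under 0.05; the SE is the log2 fold change over the square root of F, and 95% intervals use 30 residual degrees of freedom. On simulated data (Tug1 KD against control at Rest, 13995 genes, 200 changed by 1 on the log2 scale) it recovered 88.5% with 12 false calls. The simulated libraries were drawn independently, without a difference between replicate sets. Smaller changes were not simulated, so these figures do not give the recovery or false calls in the real data. DESeq2 1.42.0 and limma 3.58.1 (voom) were among 18 alternatives, 1 of them (leaving out both EPS 3h replicate 3 libraries) chosen after seeing the data. The members and lists were chosen with earlier results of these data known; list genes named are the 2 with the largest change that passed, with a mean of at least 1 CPM, per list and comparison. Receptors were named whatever their values, and the 2 genes most alike by correlation for each tested member. No 2 libraries of a group agreed within sampling noise (lowest chi-square per degree of freedom 3.98 over 90 pairs). Same-numbered libraries were taken as paired where every pair's deviations correlated above 0.1, which held in 6 of 9 comparisons (KD against control at EPS 0h, r = 0.57 to 0.71, and at EPS 3h, 0.21 to 0.72; EPS 0h against Rest, 0.23 to 0.47 in control and 0.16 to 0.38 in KD; EPS 3h against Rest in control, 0.12 to 0.50; EPS 3h against EPS 0h in KD, 0.19 to 0.75). In these 6, in the order given, 6, 2, 2, 3, 5 and 4 libraries correlated best with their own number. Libraries of other numbers in the same replicate set also correlated (mean r = 0.44, 0.17, 0.35, 0.14, 0.24 and 0.30). The rule therefore did not separate pairing by number from a shared replicate set. Gene positions are from GENCODE on GRCm39, and promoter windows (16 for 9 members; none for Il15) from RefSeq on GRCm38.p6. The values of 1 listed gene are not reported here.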

Additional observations from a re-analysis of the deposited data

Results flagged for a closer look

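Of the 54 sets of 6 libraries that were looked at (9 tested members in 6 groups), 2 held a library far from the other 5. Chance flags about 1 in 20 such sets. Lif in replicate 6 of Rest control was at 67.19 CPM, the highest of its group, and its gap to the next library was 0.755 of the group's range. Metrnl in replicate 5 of Rest Tug1 KD was at 55.71 CPM, with a gap of 0.669 of the range.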

How the results depend on the processing

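Of 26 called member values, 15 were called in all 18 alternatives, 11 were lost in at least 1 and 0 changed direction. Of 73 values not called, 11 were called in at least 1 alternative. Counts of called members changed as follows. With the replicate number as a block, 2 were called for KD against control at Rest (Gdf15 joined Fgf21, FDR = 0.0486), 3 for KD at EPS 0h and 3 in each EPS 3h against EPS 0h comparison (Lif and Fgf21 joined Metrnl), and the block changed no other call. Numbers did not pair the libraries of KD against control at Rest (lowest r = -0.08), EPS 3h against EPS 0h in control (-0.03) or EPS 3h against Rest in KD (0.08), where 3, 3 and 1 libraries correlated best with their own number. A block on the replicate set gave 2 for KD at EPS 0h and 3 in each EPS 3h against EPS 0h comparison. Fits of the compared groups alone called 2 at Rest (Gdf15, FDR = 0.0177) and 0 for KD at EPS 0h and EPS 3h. Replicates 1 to 3 alone called 0 for KD at Rest and EPS 0h, 3 (in place of 5) for EPS 0h against Rest in control, 7 (in place of 5) in KD, 6 (in place of 5) for EPS 3h against Rest in control and 2 in each EPS 3h against EPS 0h comparison. Replicates 4 to 6 alone called 0 for KD in each condition, with fewer libraries by construction. Without a filter on low counts, 0 were called for KD at EPS 0h, and at EPS 3h Mstn passed in place of Fgf21 (FDR = 0.11). EPS 3h against EPS 0h gave 2, Fgf21 being the addition, with DESeq2 or upper quartile factors in control and with library size only or at least 10 counts in 6 libraries in both LNAs. Leaving out 1 replicate, or both EPS 3h replicate 3 libraries, gave 0 to 1 calls for KD at EPS 0h and at EPS 3h and 0 to 2 for EPS 3h against EPS 0h in each LNA. For the other lost and gained calls the cause was not tested. Depth limits Mstn, at or near the floor of 3 counts in most libraries, and Il15, with 28 to 105 counts per library.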
